A study of Mus musculus with 35 samples.

Results

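The p53 pathway was examined in hematopoietic stem and progenitor cells (HSPCs) of WT and JMJD1B-/- mice through 10 genes of p53, its regulators and its targets. They were chosen by name. Trp53 encodes p53, Mdm2, Mdm4 and Pml encode direct regulators of the protein, and Ccng1, Aen, Trp53inp1, Phlda3, Sesn2 and 9630033F20Rik are targets of its transcriptional activity. All 10 were found among the 11982 gene names of the deposited RNA-seq table, and all 10 were among the 11863 genes with a mean of at least 0.5 RPKM (reads relative to transcript length in kilobases and to all mapped reads) that were tested.

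p53 is a transcription factor that is kept scarce in unstressed cells, because MDM2 marks it for degradation and MDM4 covers its activation domain. DNA damage, nucleolar stress and other signals release it, and it then switches on genes for cell-cycle arrest, apoptosis, DNA repair and metabolic adjustment, along with Mdm2 itself, which closes a feedback loop. In hematopoietic stem cells, p53 is known for holding cells in quiescence and for removing damaged cells. Most of this control acts on the protein, so the level of Trp53 RNA is not a readout of p53 activity, and the RNA of its targets is the usual one.

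The cells were HSPCs from bone marrow of mice on a 129P2xC57BL/6J background. The JMJD1B-/- mice carried a gene-trap knockout of Kdm3b, the gene of the histone demethylase JMJD1B, in all cells, and the WT mice were littermates matched for age. Adult mice of both sexes were used in the study, and no label gives the age of the mice behind a library. Polyadenylated RNA was sequenced from 2 libraries per genotype, described in the design as 2 biological replicates, and nothing further says whether each library came from a single animal or from a pool. The p-values therefore measure the spread between these libraries.

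The depth of the libraries was estimated at 17500000 and 24600000 reads for WT replicates 1 and 2 and at 6100000 and 21000000 reads for JMJD1B-/- replicates 1 and 2. For a transcript of 1 kb, 3 reads correspond to 0.171, 0.122, 0.491 and 0.143 RPKM, in the same order of libraries, counting error alone considered. JMJD1B-/- replicate 1 was thus the library with the least information on weakly expressed genes.

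Kdm3b checked the genotypes. Its level was 31.0 and 24.3 RPKM in WT and 4.00 and 4.63 RPKM in JMJD1B-/- libraries. It fell by 2.65 on the log2 scale (adjusted p = 0.0314, limma). On this scale, log2(RPKM + 0.1), changes of weakly expressed genes are understated. Across the transcriptome, an unadjusted p under 0.05 was found in limma for 1203 of the 11863 genes (10.1%), 751 of them lower and 452 higher in JMJD1B-/- HSPCs, and with quantile normalization the split was 714 lower and 665 higher. After Benjamini-Hochberg adjustment 5 genes (0.0421%) were left. They were Kdm3b, Prss34, Lilrb4 and Prtn3, which fell, and the histone gene Hist1h2aa, which rose, and apart from Kdm3b they were picked for naming by their values. No gene was lower after adjustment once levels were rescaled, and the adjusted p of Kdm3b was then 0.065 (median-ratio) and 0.0974 (quantile), against 1.08e-06 to 0.796 over all alternatives.

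The libraries also differed in markers of cell types. Of 12 markers of HSPCs all were listed, the most abundant being Kit, the receptor of stem cell factor, with 66.9, 62.5, 51.6 and 92.7 RPKM in WT replicates 1 and 2 and JMJD1B-/- replicates 1 and 2. The markers fit the label of the cells, but they were not equal between genotypes. Their summed level was 336 and 317 RPKM in WT libraries against 199 and 243 RPKM in JMJD1B-/- libraries, and 7 of the 12 were lower in both JMJD1B-/- libraries than in either WT library. Over all genes tested, 22.7% were lower and 20.1% higher without overlap in this sense. Among the 7, Procr is listed only because WT replicate 1 reached 1 RPKM, which favours the lower direction. Of 10 erythroid markers 9 were listed, all 9 higher in both JMJD1B-/- libraries, with sums of 405 and 609 RPKM against 1188 and 1760 RPKM and Car1 as the most abundant gene. Of 6 basophil and mast cell markers all 6 were lower, with sums of 474 and 550 RPKM against 98.2 and 42.2 RPKM and Prss34 as the most abundant gene.

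T and NK cell markers stood apart in 1 library. Of 10 such genes 9 were listed, with Il7r as the most abundant, and their summed level was 26.2 and 34.5 RPKM in WT replicates 1 and 2, 99.2 RPKM in JMJD1B-/- replicate 1 and 23.2 RPKM in JMJD1B-/- replicate 2. The megakaryocyte list (5 of 5 genes listed, led by Pf4) summed to 587, 513, 213 and 332 RPKM in that order, the granulocyte list (11 of 11, led by Mpo, with Camp at 0 in WT replicate 2 and JMJD1B-/- replicate 1) to 297, 206, 91.1 and 57.5 RPKM although it went both ways (of 9 tested, 6 lower and 2 higher without overlap), and the monocyte-macrophage list (5 of 6, led by Ccr2) to 154, 163, 128 and 39.3 RPKM. Of 6 B cell markers Cd79b alone was listed, at 3.28, 1.99, 1.22 and 0.631 RPKM. Markers of stroma and endothelium (4 of 5, led by Pecam1) summed to 38.0, 65.3, 23.6 and 9.83 RPKM. Fewer cells of a type and less RNA per cell cannot be told apart in such bulk samples, and the part of any of these cell types in the levels of p53 genes was not tested.

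WT replicate 2 also differed from the other libraries in its sex-linked transcripts. Xist, which is transcribed from the inactive X chromosome of females, had 332 RPKM there, 0.0510 RPKM in WT replicate 1, 0 in JMJD1B-/- replicate 1 and 0.0451 RPKM in JMJD1B-/- replicate 2. The Y-linked gene Ddx3y had the reverse pattern, with 0.411 RPKM in WT replicate 2 and 25.5, 27.5 and 29.3 RPKM in the other libraries. The log2 fold changes of the members are therefore also given with single libraries left out.

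The 10 genes were ordered by their mean level in WT HSPCs. Mdm4 was the most abundant (66.4 ± 1.10 RPKM, SD, n = 2), followed by Mdm2 (32.8 ± 0.851), Ccng1 (29.9 ± 0.418), Trp53 (26.5 ± 0.296), Pml (18.1 ± 0.832), Aen (13.4 ± 1.60), Trp53inp1 (7.24 ± 2.19), Sesn2 (2.13 ± 0.285), 9630033F20Rik (1.01 ± 0.241) and Phlda3 (0.549 ± 0.281). No pair of neighbours in this order overlapped between the WT libraries. The last pair was close, however. The 95% Poisson interval of Phlda3 in WT replicate 2 was 0.493 to 1.09 RPKM, and 9630033F20Rik had 0.844 RPKM in WT replicate 1. The span of the list was wide, since 94.5% of the listed genes had a lower WT mean than Mdm4 and 2.16% a lower one than Phlda3. In JMJD1B-/- HSPCs Mdm4 was again highest, and Ccng1, Trp53, Mdm2, Pml and Aen followed with each overlapping the next. Below them Trp53inp1, Sesn2, Phlda3 and 9630033F20Rik did not overlap, and the last pair stood in the opposite order to WT. Each gene of that pair is listed only through the genotype in which it was higher.

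**Figure D1:**
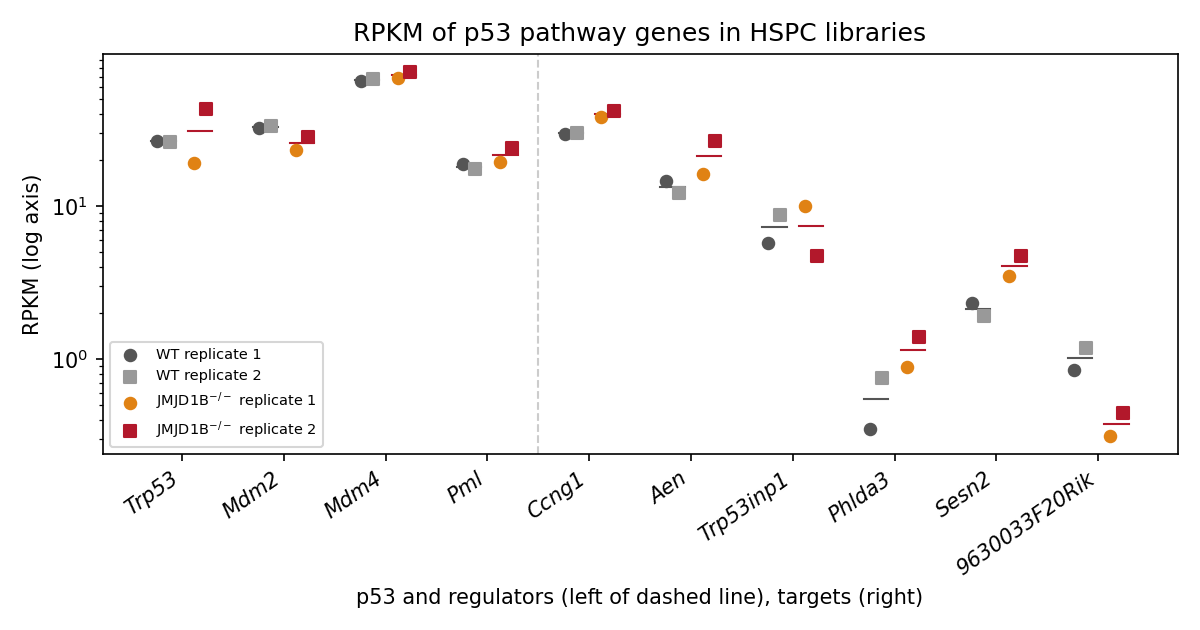
RPKM on a log axis of the 10 genes in each of the 4 libraries, with p53 and its regulators to the left of the dashed line and the targets to the right. Points are single libraries and short lines are the means of a genotype (n = 2). Trp53 and Trp53inp1 are the genes in which the JMJD1B-/- libraries lie on both sides of the WT libraries.

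As a whole, 8 of the 10 genes had levels that did not overlap between the genotypes, as did 42.9% of all genes tested. In 6 of them, Mdm4, Pml, Ccng1, Aen, Phlda3 and Sesn2, both JMJD1B-/- libraries exceeded both WT libraries, which held for 20.1% of all genes tested, and in 2 of them, Mdm2 and 9630033F20Rik, both lay below, which held for 22.7%. Phlda3 and 9630033F20Rik are listed only through the genotype in which they were higher, so the table's limit of 1 RPKM favours their direction, and without them 5 were higher and 1 was lower. At an unadjusted p under 0.05 in limma, 2 of the 10 were higher (Ccng1 and Sesn2) and 0 were lower, against 3.81% and 6.33% of all genes tested. The number higher was 4 without JMJD1B-/- replicate 1, where 1258 of the 11863 genes were higher too, and 0 when any other single library was left out. After adjustment over all genes 0 of the 10 passed in limma, with adjusted p from 0.484 to 0.983, and 0 passed in the gene-by-gene test, in which 1 had an unadjusted p under 0.05. The median log2 fold change of the 10 genes was 0.18, and that of all genes tested was −0.02. Without JMJD1B-/- replicate 1 they were 0.44 and 0.086, and without JMJD1B-/- replicate 2 they were 0.19 and −0.102. These counts describe genes that were chosen with earlier results known. An exact permutation test of 2 libraries against 2 can give no two-sided p below 0.333 and was not used.

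Trp53 itself was the least even of the abundant members. It had 26.7 and 26.3 RPKM in the WT libraries, 19.2 RPKM in JMJD1B-/- replicate 1 and 43.0 RPKM in JMJD1B-/- replicate 2. The WT libraries were nearly equal, while one JMJD1B-/- library stood at 72.4% and the other at 162% of the WT mean. The log2 fold change of 0.11 (SE 0.35, 95% interval −0.71 to 0.93, limma adjusted p = 0.936) is thus a mean of opposite deviations. Leaving out WT replicate 2 gave 0.10, leaving out JMJD1B-/- replicate 2 gave −0.46, and leaving out JMJD1B-/- replicate 1 gave 0.69.

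The estimated depths put 117 reads per kb of transcript behind the low value and 903 behind the high one. The JMJD1B-/- libraries differed by 1.16 in log2(RPKM + 0.1) for Trp53. Of all genes tested 12.1% had a difference between these libraries at least as large, and among the 6093 genes with a mean of at least 10 RPKM, a limit chosen after the values were seen, 3.25% did. The median absolute difference over all genes tested was 0.36 between the JMJD1B-/- libraries and 0.22 between the WT libraries.

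The genes with the most similar profile to Trp53, by the root mean square difference in log2(RPKM + 0.1) over the 4 libraries, were Rcl1 (0.10), Polr2f (0.11) and Psmb3 (0.12). Rcl1 acts in ribosome biogenesis, Polr2f encodes a subunit shared by RNA polymerases, and Psmb3 encodes a subunit of the proteasome. Rcl1 had 25.2 and 27.4 RPKM in WT and 21.0 and 39.3 RPKM in JMJD1B-/- libraries. Its likeness to Trp53 follows from how it was picked.

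Wrap53, which is needed for telomerase assembly and Cajal bodies, lies head to head with Trp53. In RefSeq (GRCm38.p6) the start used for its promoter is 109 bases from that of Trp53, and the genes run in opposite directions. It had 12.2 and 11.5 RPKM in WT and 7.43 and 12.7 RPKM in JMJD1B-/- libraries. As for Trp53, the lowest value was that of JMJD1B-/- replicate 1 and the highest that of JMJD1B-/- replicate 2, but the latter exceeded the WT libraries only slightly. The log2 fold change of Wrap53 was −0.28 (SE 0.30, limma adjusted p = 0.781), and 0.11 without JMJD1B-/- replicate 1.

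Mdm2 and Mdm4 encode the related proteins that restrain p53, and neither had an unadjusted p under 0.05 in the main fit. Mdm2, the ubiquitin ligase that is also a p53 target, had 32.2 and 33.4 RPKM in WT and 23.3 and 28.4 RPKM in JMJD1B-/- libraries. Both JMJD1B-/- libraries were lower than either WT library. Its log2 fold change was −0.35 (SE 0.19, 95% interval −0.80 to 0.10, limma adjusted p = 0.588), and it lay between −0.49 and −0.21 when single libraries were left out. The unadjusted p was 0.113 in limma, and 0.041 with quantile normalization. It was 0.0555 after median-ratio scaling, 0.183 in limma without trend and 0.136 in the gene-by-gene test.

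Mdm4, which lacks effective ligase activity and inhibits p53 by binding it, had 65.6 and 67.2 RPKM in WT and 68.7 and 75.0 RPKM in JMJD1B-/- libraries. The genotypes did not overlap, but the difference was small, with a log2 fold change of 0.11 (SE 0.17, 95% interval −0.28 to 0.51, limma adjusted p = 0.855). With quantile normalization it was 0.01, and it lay between 0.05 and 0.18 when single libraries were left out.

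Ratios within a library do not depend on its scaling, and were computed after the levels were seen. The ratio of Mdm2 to Mdm4 in RPKM was 0.490 and 0.497 in WT and 0.340 and 0.378 in JMJD1B-/- libraries. That these do not overlap follows from Mdm2 being lower and Mdm4 higher without overlap, and adds no support. The ratio of Mdm4 to Trp53 was 2.45 and 2.55 in WT and 3.57 and 1.75 in JMJD1B-/- libraries, which lie on both sides of WT. The ratio of Mdm2 to Trp53 was 1.2 and 1.27 in WT and 1.22 and 0.661 in JMJD1B-/- libraries, so it departed from WT in JMJD1B-/- replicate 2 alone. The ratio of Ccng1 to Mdm2, a pair of p53 targets, was 0.920 and 0.905 in WT and 1.65 and 1.48 in JMJD1B-/- libraries. The pair had nearly equal levels in WT HSPCs and did not in JMJD1B-/- HSPCs. This separation likewise follows from Ccng1 being higher and Mdm2 lower without overlap.

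Pml encodes the scaffold of PML nuclear bodies, in which p53 is modified. It had 18.7 and 17.5 RPKM in WT and 19.3 and 23.9 RPKM in JMJD1B-/- libraries. Both JMJD1B-/- libraries were higher, the first by little, with a log2 fold change of 0.24 (SE 0.21, limma adjusted p = 0.717), or 0.20 without WT replicate 2, 0.09 without JMJD1B-/- replicate 2 and 0.40 without JMJD1B-/- replicate 1. Among 6 further genes of the PML nuclear body, 1 was lower at an unadjusted p under 0.05 in limma and 0 were higher, against 6.33% and 3.81% of all genes tested. It was Sp100, another scaffold of these bodies. Its unadjusted p was 0.0216, but 0.0733 in limma without trend and 0.208 in the gene-by-gene test. Sp100 had 43.6 and 52.8 RPKM in WT and 35.7 and 18.7 RPKM in JMJD1B-/- libraries (log2 fold change −0.89, adjusted p = 0.425). Its size depended on JMJD1B-/- replicate 2, without which it was −0.42, and without JMJD1B-/- replicate 1 it was −1.36, where its adjusted p was 0.00364, against 0.00364 to 1 over all alternatives.

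Ccng1 was the most abundant of the 6 targets and the steadiest between replicates. It encodes cyclin G1, which recruits a phosphatase to MDM2 and is part of the feedback on p53. It had 29.6 and 30.2 RPKM in WT and 38.4 and 42.0 RPKM in JMJD1B-/- libraries. The gap between genotypes exceeded that between replicates in either of them. This gave a log2 fold change of 0.43 (SE 0.18, 95% interval 0.01 to 0.84) with an unadjusted p of 0.0454 and an adjusted p of 0.484 in limma, and it lay between 0.36 and 0.49 when single libraries were left out. The unadjusted p was 0.0964 in limma without trend.

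Sesn2 encodes sestrin 2, which is induced by p53 and by nutrient and oxidative stress and restrains mTORC1. It had 2.33 and 1.92 RPKM in WT and 3.48 and 4.69 RPKM in JMJD1B-/- libraries. Both JMJD1B-/- values exceeded both WT values. limma put the log2 fold change at 0.90 (SE 0.38, 95% interval 0.02 to 1.78) with an unadjusted p of 0.0464 and an adjusted p of 0.486, and it lay between 0.69 and 1.11 when single libraries were left out. With the replicate number as a block the unadjusted p was 0.0891. The other sestrin genes had negative estimates. Sesn1, also a p53 target, had 21.0 and 23.0 RPKM in WT and 18.5 and 15.9 RPKM in JMJD1B-/- libraries, and Sesn3 had 9.46 and 6.84 RPKM in WT and 5.61 and 5.42 RPKM in JMJD1B-/- libraries. Their log2 fold changes were −0.35 and −0.54 (limma adjusted p = 0.592 and 0.573).

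Aen encodes a nuclease that enters the nucleus and promotes apoptosis after p53 activation. It had 14.5 and 12.2 RPKM in WT and 16.2 and 26.6 RPKM in JMJD1B-/- libraries. The genotypes did not overlap, but the libraries of the knockout lay far apart, at 122% and 199% of the WT mean. The unadjusted p was 0.0523 in limma, but 0.0181 with the replicate number as a block, 0.0326 after median-ratio scaling and 0.0316 after quantile normalization. In limma without trend it was 0.109, and in the gene-by-gene test it was 0.23. The log2 fold change was 0.64 (SE 0.28, 95% interval −0.01 to 1.28, limma adjusted p = 0.492). Leaving out WT replicate 2 gave 0.52, leaving out JMJD1B-/- replicate 2 gave 0.28, and leaving out JMJD1B-/- replicate 1 gave 0.99, where its adjusted p was 0.0292, against 0.0292 to 1 over all alternatives. This was the 1 value among the members under all alternatives with an adjusted p under 0.05.

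Trp53inp1 encodes a protein of stress-induced autophagy and apoptosis that also enhances p53 activity. It had 5.69 and 8.78 RPKM in WT and 9.96 and 4.73 RPKM in JMJD1B-/- libraries. The JMJD1B-/- libraries were the highest and the lowest of all 4. The estimate was a log2 fold change of −0.04 (SE 0.40, 95% interval −0.99 to 0.91, limma adjusted p = 0.983), and it was 0.27 without WT replicate 2, 0.49 without JMJD1B-/- replicate 2, −0.57 without JMJD1B-/- replicate 1 and 0.08 with quantile normalization. The summed T and NK cell markers ranked the libraries in the same order as Trp53inp1, with JMJD1B-/- replicate 2 lowest and JMJD1B-/- replicate 1 highest. This match was picked after the values of several marker lists were seen, and 4 libraries allow few orders. The part of these cells in the level of Trp53inp1 was not tested.

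Phlda3 and 9630033F20Rik were at the limit of the table, which lists a gene when at least 1 library reaches 1 RPKM. Phlda3, a p53 target that inhibits AKT by competing for membrane lipids, had 0.350 and 0.748 RPKM in WT and 0.892 and 1.39 RPKM in JMJD1B-/- libraries. It owes its place in the table to JMJD1B-/- replicate 2. At the estimated depths, the values of Phlda3 correspond to 9 and 27 reads in WT and to 8 and 43 reads in JMJD1B-/- libraries. For Phlda3 these numbers fit within a relative tolerance of 1e-09. The 95% Poisson intervals of its level were 0.160 to 0.665 and 0.493 to 1.09 RPKM in WT and 0.385 to 1.76 and 1.01 to 1.88 RPKM in JMJD1B-/- libraries. The interval of JMJD1B-/- replicate 2 lay above that of WT replicate 1 and overlapped that of WT replicate 2. The log2 fold change was 0.98 (SE 0.76, limma adjusted p = 0.691), and it was 0.47 with a pseudocount of 1 and 1.30 with quantile normalization, and it lay between 0.52 and 1.43 when single libraries were left out.

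The gene listed as 9630033F20Rik is a synonym of Tigar in RefSeq, which encodes a phosphatase that lowers glycolytic flux and oxidative damage. It had 0.844 and 1.18 RPKM in WT and 0.313 and 0.442 RPKM in JMJD1B-/- libraries, and it owes its place in the table to WT replicate 2. Both JMJD1B-/- values were lower than either WT value. They rest on an estimated 1.91 and 9.30 reads per kb of transcript, against 14.8 and 29.1 in the WT libraries. This gave a log2 fold change of −1.22 (SE 0.80, 95% interval −3.10 to 0.66, limma adjusted p = 0.637), and it varied with the pseudocount from −0.54 to −1.40 while all 4 libraries were kept and from −1.44 to −1.0 when single libraries were left out. With quantile normalization it was −0.70. The unadjusted p of 0.172 in limma became 0.00965 without trend. It was 0.377 with quantile normalization, 0.265 with the replicate number as a block and 0.0544 in the gene-by-gene test.

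**Figure D2:**
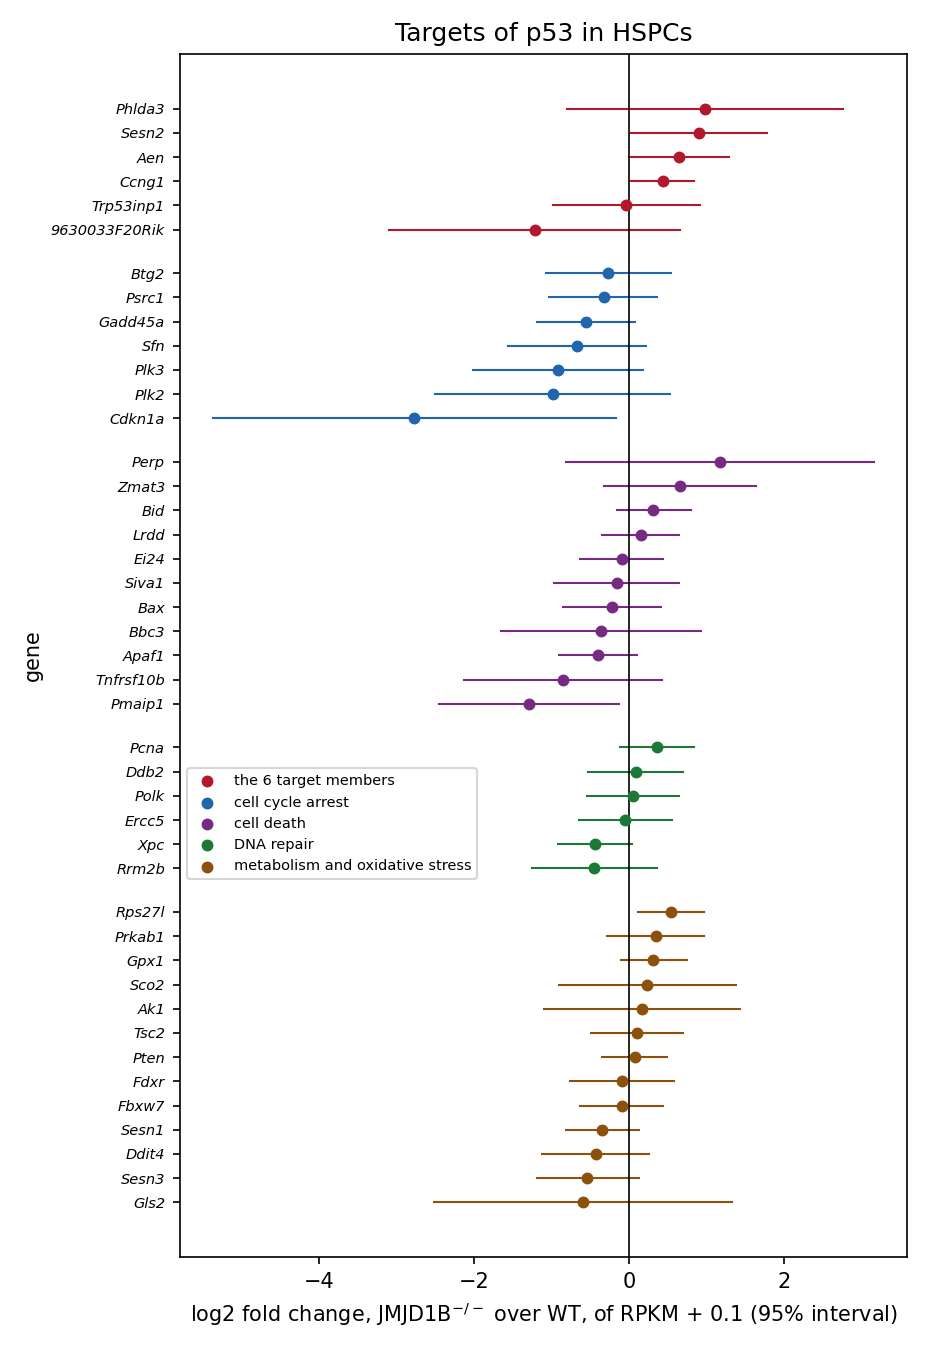
Log2 fold change of RPKM + 0.1 in JMJD1B-/- over WT HSPCs for the 6 target genes and for 37 other p53 targets in 4 functional classes. Points are estimates from limma over 2 libraries per genotype and lines are 95% intervals. All 7 genes of cell-cycle arrest lie to the left of 0, and the other classes lie on both sides. Of the arrest genes, Cdkn1a and Plk2 reach the table's limit of 1 RPKM in WT libraries alone, which favours the left side.

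The wider pathway was examined through 81 further genes of the p53 network, of which 74 were listed and tested. Trp63, Trp73, Cdkn2a, Fas, Eda2r, Dram1 and Ephx1 were not analysed here. Of the 74 genes, 4 were lower and 2 were higher at an unadjusted p under 0.05 in limma (8.11% in all, against 10.1% of all genes tested), and 0 passed after adjustment, in limma or in the gene-by-gene test. Their median log2 fold change was −0.10, but 0.05 without JMJD1B-/- replicate 1 and −0.21 without JMJD1B-/- replicate 2. Libraries of the genotypes did not overlap for 39 of them (52.7%, against 42.9% of all genes tested), 22 lower (29.7% against 22.7%) and 17 higher (23.0% against 20.1%). Daxx and Hipk2 are in 2 of the lists and were counted once. Some of the 74 genes are named after their values were seen, namely those without an unadjusted p under 0.05 other than Bax, Ppm1d and Wrap53.

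Targets that act in cell-cycle arrest numbered 7, and all had a negative log2 fold change, as had 6285 of the 11863 genes tested, and the median was −0.68. All 7 stayed negative with either other scaling. Cdkn1a and Plk2 reach the table's limit of 1 RPKM in WT libraries alone, which favours a negative sign, and they are among those counted. There was no overlap between genotypes for 5 of the 7, while 22.7% of all genes tested were lower without overlap, and for 3 of the 7 with quantile normalization. With Cdkn1a and Plk2 set aside, Gadd45a, Plk3 and Sfn were lower without overlap, and none of the rest had an unadjusted p under 0.05 in limma. Cdkn1a, the inhibitor of cyclin-dependent kinases that is the main effector of arrest by p53, was weakly expressed, and its level was 1.37 and 2.28 RPKM in WT, 0 in JMJD1B-/- replicate 1 and 0.652 RPKM in JMJD1B-/- replicate 2. Its log2 fold change of −2.77 (limma adjusted p = 0.477) ranged from −4.45 to −1.12 with the pseudocount, and from −4.22 to −1.31 when single libraries were left out. Its adjusted p was 0.0145 without JMJD1B-/- replicate 2, against 0.0145 to 1 over all alternatives, and its unadjusted p was 0.0702 with a pseudocount of 0.01, 0.0884 with quantile normalization and 0.206 in the gene-by-gene test. Gadd45a, which binds cyclin-dependent kinase and PCNA, was more abundant, with 24.1 and 27.6 RPKM in WT and 13.6 and 22.3 RPKM in JMJD1B-/- libraries (log2 fold change −0.56, adjusted p = 0.535). Btg2 and Psrc1 overlapped between genotypes. None of the 7 passed the adjusted threshold, and 1 of them, Cdkn1a, had an unadjusted p under 0.05 (14.3%, against 10.1% of all genes tested).

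Proliferation genes gave the opposite sign in the same libraries. All 7 had positive log2 fold changes (6 of 7 with quantile normalization), as had 5578 of the 11863 genes tested. In this direction 6 of them lay without overlap, as did 20.1% of all genes tested. With either other scaling 5 did, as did 2623 (median-ratio) and 2956 (quantile) of the 11863 genes. In the main fit 2 had an unadjusted p under 0.05 in limma, as had 3.81% of all genes tested. None passed after adjustment. The list had sums of 635 and 713 RPKM in WT and 819 and 803 RPKM in JMJD1B-/- libraries and Mki67 as the most abundant gene. Some arrest genes are also early response genes that handling of tissue can induce. The list of 10 dissociation genes, led by Jun and with Atf3 at 0 in JMJD1B-/- replicate 1, summed to 292 and 386 RPKM in WT and 329 and 231 RPKM in JMJD1B-/- libraries, and 8 of its 10 genes had negative log2 fold changes under all 3 scalings, like the arrest genes. Without overlap 1 was lower and 2 were higher, against 22.7% and 20.1% of all genes tested. The 2 higher genes, Hspa1a and Hspa1b, reach the table's limit of 1 RPKM in JMJD1B-/- libraries alone, which favours that direction. Atf3 reaches it in a WT library alone, which favours its negative sign. Btg2 had 13.1, 17.6, 17.8 and 8.91 RPKM and Plk3 had 3.08, 5.68, 2.94 and 1.58 RPKM in the same order of libraries. Like the dissociation sum, both were lowest in JMJD1B-/- replicate 2, as was Plk2. Cdkn1a, Gadd45a, Sfn and Psrc1 were lowest in JMJD1B-/- replicate 1 instead. The part of cell handling in these levels was not tested.

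Targets that act in cell death went both ways. Of 11 tested, 4 were lower and 3 were higher without overlap, against 22.7% and 20.1% of all genes tested, and the median was −0.16. With quantile normalization 2 were lower and 2 higher. Bax, which permeabilizes the mitochondrial outer membrane, was the most abundant, with 32.2 and 31.4 RPKM in WT and 20.8 and 35.7 RPKM in JMJD1B-/- libraries. It had the same order of libraries as Trp53 in the knockout, low in replicate 1 and high in replicate 2, with a log2 fold change of −0.22 (limma adjusted p = 0.808), or 0.17 without JMJD1B-/- replicate 1. Pmaip1, the gene of the BH3-only protein NOXA, was the 1 gene of this class at an unadjusted p under 0.05 (9.09%, against 10.1% of all genes tested), with 4.25 and 4.92 RPKM in WT and 2.90 and 1.12 RPKM in JMJD1B-/- libraries (log2 fold change −1.29, adjusted p = 0.452). Its unadjusted p exceeded 0.05 after rescaling (median-ratio 0.0544, quantile 0.0666), in limma without trend (0.0502) and in the gene-by-gene test (0.189). Leaving out JMJD1B-/- replicate 2 gave −0.64, and leaving out JMJD1B-/- replicate 1 gave −1.94, where its adjusted p was 0.0145, against 0.0145 to 1 over all alternatives. Bbc3, the gene of the related protein PUMA, was at 1.49 and 1.49 RPKM in WT and 0.921 and 1.39 RPKM in JMJD1B-/- libraries. Perp, which encodes a membrane protein of desmosomes, had 11.8 RPKM in JMJD1B-/- replicate 1 and 3.63, 1.18 and 1.93 RPKM in WT replicates 1 and 2 and JMJD1B-/- replicate 2.

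DNA repair targets were centred near 0. None of 6 passed an unadjusted p of 0.05 in limma, against 10.1% of all genes tested, 2 were lower and 1 was higher without overlap, against 22.7% and 20.1%, and the median log2 fold change was 0.00. The higher gene was Pcna, the sliding clamp of replication, with 113 and 154 RPKM in WT and 165 and 174 RPKM in JMJD1B-/- libraries. Xpc, which recognizes damaged DNA, was among the lower ones, with 21.4 and 19.1 RPKM in WT and 16.0 and 14 RPKM in JMJD1B-/- libraries (log2 fold change −0.44, limma adjusted p = 0.521).

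Of 13 tested targets in metabolism and oxidative stress, 3 were lower and 3 were higher without overlap (23.1% each, against 22.7% and 20.1% of all genes tested), and the median was 0.07. Rps27l, a ribosomal protein that also binds MDM2, was the 1 gene of this class at an unadjusted p under 0.05 (7.69%, against 10.1% of all genes tested). It had 47.9 and 58.1 RPKM in WT and 75.6 and 77.9 RPKM in JMJD1B-/- libraries (log2 fold change 0.54, limma adjusted p = 0.42), and its unadjusted p was 0.0635 in limma without trend, 0.0623 in the gene-by-gene test and 0.165 without WT replicate 1. The genes of RPL5, RPL11 and RPL23, ribosomal proteins that bind MDM2 under nucleolar stress, had the same direction in the main fit. These genes and Npm1 all had positive log2 fold changes, 3 of the 4 without overlap (against 20.1% of all genes tested) and with a median of 0.24. After median-ratio scaling all 4 were positive and all 4 lay without overlap. Quantile normalization left 1 of the 4 positive and a median of −0.04. The sums were 1557 and 1809 RPKM in WT and 1913 and 2095 RPKM in JMJD1B-/- libraries.

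Among genes that control p53 upstream, those of kinases and the phosphatase Ppm1d had small estimates. Of 7 genes 1 lay without overlap (Chek1, higher), against 42.9% of all genes tested, and 3 of 7 did with either other scaling. The log2 fold changes ranged from −0.16 to 0.31. Ppm1d, itself a p53 target that switches the pathway off, had 10.7 and 11.0 RPKM in WT and 9.21 and 11.7 RPKM in JMJD1B-/- libraries (log2 fold change −0.07, 95% interval −0.62 to 0.49, limma adjusted p = 0.947). The ubiquitin axis was similar, with 2 of 8 genes without overlap, or 3 after median-ratio scaling, and log2 fold changes from −0.27 to 0.22.

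Ppp1r13b encodes ASPP1, which directs p53 to apoptotic targets, and had 12.7 and 11.1 RPKM in WT and 5.82 and 7.00 RPKM in JMJD1B-/- libraries. Both JMJD1B-/- libraries were lower than both WT libraries, with a log2 fold change of −0.89 (SE 0.25, unadjusted p = 0.00812 and limma adjusted p = 0.334), and it lay between −1.02 and −0.75 when single libraries were left out. Its unadjusted p was then 0.0999 without WT replicate 1, and its adjusted p was 0.0385 without JMJD1B-/- replicate 2, against 0.0385 to 1 over all alternatives. Trp53bp1 and Trp53bp2 were also lower without overlap, with log2 fold changes of −0.38 and −0.39 (limma adjusted p = 0.608 and 0.669). This makes 3 of the 4 tested genes of the p53 family and ASPP proteins, against 22.7% of all genes tested. Ppp1r13l overlapped, with 1.45 and 1.37 RPKM in WT and 0.834 and 1.46 RPKM in JMJD1B-/- libraries. Prmt5, which methylates arginines of p53 among many substrates, was the 1 gene of 9 in acetylation and methylation at an unadjusted p under 0.05 (11.1%, against 10.1% of all genes tested), with a log2 fold change of 0.47 (unadjusted p = 0.0494 and adjusted p = 0.491). The unadjusted p was 0.0501 with a pseudocount of 0.01, 0.104 in limma without trend and 0.121 in the gene-by-gene test, and the log2 fold change lay between 0.30 and 0.65 when single libraries were left out. Smyd2, which methylates a lysine of p53, had 33.1 and 34.0 RPKM in WT and 34.5 RPKM in JMJD1B-/- replicate 2, but 10.3 RPKM in JMJD1B-/- replicate 1. Of all genes tested 5.82% had a difference between the JMJD1B-/- libraries at least as large as that of Smyd2.

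The promoters of the members were searched for the p53 decamer, the 10-base unit that p53 response elements carry as a pair. The decamer is its own reverse complement as a pattern, so each match lies on both strands. RefSeq promoters (GRCm38.p6) of 300 bases, from 250 before to 50 after a gene's start, were found for 9 of the 10 genes under their current symbols, and Trp53inp1 was not among them. A decamer was present in 5 of the 9 genes, Trp53, Mdm2, Ccng1, Aen and Pml. Counted by promoter, it was present in 6 of the 11 promoters of these 9 genes and in 8.36% of the 32851 promoters in the table. None was found in Mdm4, Phlda3, Sesn2 or Tigar. A pair of decamers spaced by at most 13 bases was found in 0 of the 9 genes and in 24 promoters of the table, one of them that of Cdkn1a. A match is a description of the sequence and no evidence of binding, and response elements can lie outside these windows.

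The sequences below are those of Trp53, of its regulators Mdm2 and Pml and of its target Ccng1, and they show where the decamer lies in each. Each ends at the base before the start, 5′ to 3′ on the strand of the gene, with the decamer in capitals. For Ccng1, Pml and Mdm2 it holds 250 bases, and for Trp53 the 108 bases between the starts of Wrap53 and Trp53. The regions are chr11:40755287-40755536 on the minus strand for Ccng1, chr9:58249787-58250036 on the minus strand for Pml, chr10:117710759-117711008 on the minus strand for Mdm2 and chr11:69580251-69580358 on the plus strand for Trp53.
Ccng1: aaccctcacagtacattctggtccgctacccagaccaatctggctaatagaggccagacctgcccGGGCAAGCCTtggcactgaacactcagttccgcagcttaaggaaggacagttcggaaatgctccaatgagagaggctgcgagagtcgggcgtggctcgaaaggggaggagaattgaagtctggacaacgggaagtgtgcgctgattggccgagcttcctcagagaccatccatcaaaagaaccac
Pml: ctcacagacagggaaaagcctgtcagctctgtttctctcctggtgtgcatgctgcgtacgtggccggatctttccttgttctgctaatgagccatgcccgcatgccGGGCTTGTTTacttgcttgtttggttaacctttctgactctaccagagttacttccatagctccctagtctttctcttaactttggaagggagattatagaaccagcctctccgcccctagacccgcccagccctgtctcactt
Mdm2: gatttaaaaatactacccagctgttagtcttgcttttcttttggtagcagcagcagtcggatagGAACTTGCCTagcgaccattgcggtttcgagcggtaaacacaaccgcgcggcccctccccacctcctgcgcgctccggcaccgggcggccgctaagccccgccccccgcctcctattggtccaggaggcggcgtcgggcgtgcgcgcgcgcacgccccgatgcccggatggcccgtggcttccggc
Trp53: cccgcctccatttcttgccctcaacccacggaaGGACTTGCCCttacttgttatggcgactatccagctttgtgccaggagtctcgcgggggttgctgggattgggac

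The decamer begins 185 bases before the start in Ccng1, 144 in Pml, 186 in Mdm2, 75 in Trp53 and 121 in Aen. Aen has another start upstream, of which the same decamer lies 10 bases downstream. The decamer of Trp53 is shared with Wrap53, where it reads GGGCAAGTCC on the opposite strand and begins 43 bases before the start. Ccng1 and Mdm2 thus carry the decamer at nearly the same distance from the start.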

How the data were processed

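The members and gene lists were chosen with earlier results of these data known. The values were RPKM, to which the authors added 1 before they were deposited, and 1 was subtracted here. Reads had been aligned with TopHat2 to mm9 per the submitters' processing notes, and the counting program and annotation are not given in the sources used here. The 84 entries sharing 42 names were averaged. Depth was estimated from genes whose RPKM ratios between libraries are ratios of whole numbers, scaled by RefSeq gene lengths, with 46 genes giving the same depth within 0.2% and at most 7 any other. Simple fractions between the depths were chosen by how many of 1858 weakly expressed genes fitted whole reads. The choice rests on 132 genes, against 123 for the next best, so the depths and read numbers are estimates. Intervals and floors cover counting error only. As whole reads were recovered for 291 entries alone, no count test was run.

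Genes with a mean of at least 0.5 RPKM were compared with limma 3.58.1 (R 4.3.3) on log2(RPKM + 0.1) values (eBayes with trend, no replicate block, two-sided, Benjamini-Hochberg adjustment over 11863 genes), after a test on simulated data. Python 3.11.15, numpy 2.4.6, pandas 2.3.3, scipy 1.17.1 and matplotlib 3.10.9 were used. Alternatives were other pseudocounts and filters, median-ratio scaling, quantile normalization, limma without trend, a replicate block, a gene-by-gene test and leaving out each library. Named were all members, listed genes without overlap at an unadjusted p under 0.05, Cdkn1a, Bax, Ppm1d, Wrap53, Kdm3b, for each marker list the most abundant gene and those at 0, and the 3 genes nearest to Trp53. Other genes are named after their values were seen. ChIP-seq samples were not used here.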

Additional observations from a re-analysis of the deposited data

How the results depend on the processing

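Across 13 alternatives, 4 of 128 log2 fold changes of the members reversed. Those of Trp53inp1 became 0.08 with quantile normalization, 0.27 without WT replicate 2 and 0.49 without JMJD1B-/- replicate 2, and that of Trp53 became −0.46 without JMJD1B-/- replicate 2. Without JMJD1B-/- replicate 1, Bax became 0.17, Ppm1d 0.10 and Wrap53 0.11. With single libraries left out, Trp53 ranged from −0.46 to 0.69, Trp53inp1 from −0.57 to 0.49, Bax from −0.61 to 0.17, Ppm1d from −0.24 to 0.10 and Wrap53 from −0.66 to 0.11. The causes were not tested. Leaving out a library leaves a lone library that is assumed to vary like the others. The median of the members stayed between 0.17 and 0.44. That of the other pathway genes lay between −0.21 and 0.05. All these alternatives reuse the same libraries. Between replicates, the members' median level in log2(RPKM + 0.1) had a pooled SD of 0.27.

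Members higher at an unadjusted p under 0.05 numbered 3 with either other scaling (Ccng1, Sesn2 and Aen), where all genes higher numbered 602 (median-ratio) and 665 (quantile) against 452 in the main fit, 1 with limma without trend, 1 with the gene-by-gene test and 0 to 4 with a library left out. Members lower numbered 1 with quantile normalization, 1 without trend and 0 to 2 with a library left out. Members without overlap and lower numbered 1 with a mean of at least 1 RPKM, which removes 9630033F20Rik and Phlda3. Adjusted, 0 to 1 members were higher with a library left out.

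Of the 74 other pathway genes, those higher at an unadjusted p under 0.05 numbered 1 with a pseudocount of 0.01, 0 without trend, 1 with the gene-by-gene test and 0 to 7 with a library left out, and those lower 0 to 10. Adjusted, 0 to 4 were lower and 0 to 1 higher with a library left out. Without overlap, 23 to 46 were lower and 20 to 39 higher, fewer libraries making overlap rarer.

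Of all genes, those lower after adjustment numbered 15 with a pseudocount of 1, 2 with 0.01, 2 with a mean of at least 1 RPKM, 0 with median-ratio scaling, 0 with quantile normalization, 0 without trend and 0 with the gene-by-gene test, and those higher numbered 3 with a pseudocount of 1, 0 without trend and 0 with the gene-by-gene test. With a library left out, 0 to 523 were lower and 0 to 147 higher after adjustment, 177 to 1819 lower and 123 to 1258 higher before it, and 3788 to 5816 lower and 3414 to 5517 higher without overlap.

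With the replicate number as a block, 173 genes were lower and 83 higher after adjustment, of the other pathway genes 1 was lower after adjustment (Sp100, adjusted p = 0.0366, against 0.00364 to 1 over all alternatives) and 4 were higher before it, and the members had a median of 0.18 with 0 past the adjusted threshold. Before adjustment 2 members were again higher, but they were Ccng1 and Aen, and Sesn2 was not. Deviations of same-numbered libraries had a correlation of −0.0543 over 11863 genes, so the numbers were not taken as pairs.

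Depth limits Phlda3, 9630033F20Rik and Cdkn1a in JMJD1B-/- replicate 1. The adjusted p of Kdm3b ranged up to 0.796 without WT replicate 1.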
